A study of Mus musculus with 48 samples.

Results

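The serum response factor (SRF) and myocardin-related transcription factor (MRTF) module consisted of 34 genes of the contractile and actin cytoskeleton, taken by name from the deposited count tables, which listed 50763 genes besides the biosensor sequence. All 34 were found under their symbols and all 34 passed the filter on low counts in each of the 4 mouse lines. RNA came from primary cells of mice heterozygous for an allele of the Cre-dependent BERKY3 biosensor, a luminescent reporter of an active G protein alpha subunit. The 4 alleles were Gas*-BERKY3, studied in brain astrocytes, and Gai*-BERKY3, Gaq*-BERKY3 and Ga13*-BERKY3, studied in lung fibroblasts. Astrocytes received 1 µM isoproterenol, an agonist of beta-adrenergic receptors. Fibroblasts received 100 µM TRAP-6, a peptide agonist of the thrombin receptor PAR1. Stimulated cells stood in agonist for 90 min and unstimulated cells in fresh medium for the same time. In each state, cells had been transduced with AAV2/1-CMV-Cre, which turns the biosensor on, or with AAV2/1-CMV-empty. The virus dilution was 500-fold for astrocytes, at 430000 cells per well, and 1000-fold for fibroblasts, at 160000 cells per well. The CMV promoter is active in most cell types, so Cre was not limited to a cell type, and the labels used here give neither age nor sex. This gave 16 groups of 3 libraries. All groups carried a biosensor allele and a virus. Cells without the allele were not analysed here, so what Cre does and what the biosensor does cannot be told apart. The labels number the replicates without naming separate mice or cultures, and the p-values rest on the differences among libraries of a group, possibly technical ones.

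SRF is a transcription factor that binds CArG boxes in the promoters of actin and actin-binding genes. Its coactivators MRTF-A and MRTF-B, the products of Mrtfa and Mrtfb, are held in the cytoplasm by monomeric actin and enter the nucleus when actin is assembled into filaments. PAR1 couples to Gai, to Gaq and to Ga12 and Ga13, whereas beta-adrenergic receptors act through Gas and cyclic AMP. In fibroblasts the module is known for building stress fibres and focal adhesions.

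Library depth ranged from 15.6 to 42.6 M counts (M, 1000000), with medians of 20.3 M counts in Gas, 18.4 M counts in Gai, 18.2 M counts in Gaq and 21.7 M counts in Ga13. The biosensor sequence stood at 19.1 to 137 counts per 1000000 (CPM) in the 24 libraries given Cre, against 0 to 1.05 CPM in the 24 libraries given empty virus. With Cre it was at 19.1 to 27.3 CPM in Gas, 106 to 137 CPM in Gai, 74.3 to 101 CPM in Gaq and 107 to 136 CPM in Ga13. Summed astrocyte markers lay between 8858 and 9728 CPM in the Gas libraries and between 170.8 and 300.1 CPM in the fibroblast lines. Summed fibroblast markers lay between 27560 and 48160 CPM in the fibroblast lines and between 1643 and 2058 CPM in the Gas libraries. In Gai, libraries with the same replicate number deviated together, with correlations of 0.17 to 0.68, so for this line the fit with the replicate as a block is given beside the fit without it.

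Promoter windows of 250 bases before to 50 bases after each RefSeq transcription start were searched on both strands for a CArG box, a motif of 10 bases that is its own reverse complement. Among members with a window, 9 of 30 (30%) held a box, against 488 of 27025 genes (1.81%) overall. By window the shares were 10 of 40 (25%) and 535 of 32851 (1.63%). Actb, Actg2, Tgfb1i1 and Tagln had no entry. The members were chosen by name as SRF and MRTF genes, so their higher share describes that choice and is not a result of these data. A match describes the letters only and was not tested for binding. The 6 windows with a box whose genes had the smallest p in the TRAP-6 response of the Ga13 line are shown here because they carry the element that names the module, with the box in capitals. They are RefSeq sequences of the GRCm38.p6 build, whereas the counts were made on GRCm39, and are printed from 5′ to 3′ on the strand of the gene. Filip1l lies on the plus strand at chr16:57548992-57549291, Vcl on the plus strand at chr14:20929148-20929447, Srf on the minus strand at chr17:46556113-46556412, Lima1 on the minus strand at chr15:99820100-99820399, Actg1 on the minus strand at chr11:120348446-120348745 and Fhl1 on the plus strand at chrX:56779433-56779732.
Filip1l: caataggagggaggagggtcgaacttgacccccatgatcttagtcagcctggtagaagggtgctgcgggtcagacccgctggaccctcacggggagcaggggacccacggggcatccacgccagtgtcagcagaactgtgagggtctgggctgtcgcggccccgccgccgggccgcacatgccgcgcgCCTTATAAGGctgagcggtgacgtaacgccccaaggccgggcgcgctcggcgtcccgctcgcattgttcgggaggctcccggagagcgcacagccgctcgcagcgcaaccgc
Vcl: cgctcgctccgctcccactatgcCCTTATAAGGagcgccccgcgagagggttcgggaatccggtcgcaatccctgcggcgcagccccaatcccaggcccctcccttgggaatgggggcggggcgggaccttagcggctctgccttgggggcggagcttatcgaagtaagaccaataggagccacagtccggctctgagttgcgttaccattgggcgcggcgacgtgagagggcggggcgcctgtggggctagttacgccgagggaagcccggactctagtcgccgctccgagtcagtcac
Srf: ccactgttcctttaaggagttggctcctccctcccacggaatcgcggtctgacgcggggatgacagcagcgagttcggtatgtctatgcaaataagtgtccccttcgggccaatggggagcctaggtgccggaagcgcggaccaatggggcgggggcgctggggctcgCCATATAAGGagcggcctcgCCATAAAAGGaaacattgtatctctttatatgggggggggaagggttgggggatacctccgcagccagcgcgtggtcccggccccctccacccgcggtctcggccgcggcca
Lima1: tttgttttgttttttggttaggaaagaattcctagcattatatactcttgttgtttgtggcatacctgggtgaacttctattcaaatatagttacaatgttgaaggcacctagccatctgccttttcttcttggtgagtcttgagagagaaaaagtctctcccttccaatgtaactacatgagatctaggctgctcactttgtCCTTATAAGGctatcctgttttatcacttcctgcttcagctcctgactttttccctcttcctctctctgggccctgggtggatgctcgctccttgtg
Actg1: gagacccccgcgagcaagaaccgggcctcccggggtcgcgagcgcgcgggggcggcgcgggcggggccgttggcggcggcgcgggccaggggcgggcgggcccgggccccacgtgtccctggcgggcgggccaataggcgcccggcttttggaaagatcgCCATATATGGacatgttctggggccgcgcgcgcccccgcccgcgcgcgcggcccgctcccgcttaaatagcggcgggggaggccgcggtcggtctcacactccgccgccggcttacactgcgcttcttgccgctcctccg
Fhl1: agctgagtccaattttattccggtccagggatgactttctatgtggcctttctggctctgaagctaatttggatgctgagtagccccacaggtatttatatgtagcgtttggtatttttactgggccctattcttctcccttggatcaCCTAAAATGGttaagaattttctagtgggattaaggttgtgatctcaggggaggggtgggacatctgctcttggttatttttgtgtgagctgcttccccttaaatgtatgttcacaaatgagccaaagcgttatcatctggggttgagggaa
The Srf window held 2 boxes, which began 82 and 62 bases before the start. The single boxes began 62 bases before the start in Filip1l, 227 in Vcl, 47 in Lima1, 90 in Actg1 and 102 in Fhl1. The remaining members with a box were Fhl2, with 1 box in each of 2 windows, Myl9 and Cnn2.

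The members took up a larger share of all counts in the fibroblast lines than in the astrocytes. They made up 1.56 to 1.66% of counts in stimulated and 1.72 to 1.87% in unstimulated Gas astrocytes. The shares in stimulated and unstimulated fibroblasts were 3.11 to 3.24% and 2.88 to 3.14% in Gai, 2.14 to 2.33% and 2.06 to 2.12% in Gaq, and 2.62 to 2.77% and 2.42 to 2.56% in Ga13. The stimulated range thus lay below the unstimulated one in Gas and above it in Gaq and Ga13, while the ranges in Gai overlapped. Single genes differed in how far the lines stood apart, which is described without a test because tissue, line and culture differ together. Mylk, which encodes myosin light chain kinase, was at 6.22 to 11.1 CPM in astrocytes, against 389.9 to 517 CPM in Gai, 192 to 269 CPM in Gaq and 318 to 389 CPM in Ga13 fibroblasts. Cnn3, which encodes acidic calponin, was higher in the astrocytes, at 1206 to 1345 CPM, than in Gai, Gaq and Ga13, at 393 to 436 CPM, 295 to 328 CPM and 311 to 376 CPM. Tagln, the gene of the smooth muscle protein SM22 alpha, was at 3.93 to 9.47 CPM in Gas, 3.03 to 5.25 CPM in Gai, 2.38 to 4.07 CPM in Gaq and 2.30 to 5.34 CPM in Ga13, so its ranges overlapped across the lines. These levels depend on how overlapping genes were counted, since strandedness is not given. In the GENCODE M21 annotation 60.9% of the exonic bases of Tagln lie in exons of another gene, and the share is 39.7% for Vcl, 16.2% for Cnn3 and 11.9% for Actn1. The actin genes are close in sequence, and how reads shared between them were counted is not given either.

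In astrocytes, isoproterenol lowered most of the module and raised 3 members. Of the 34 members 20 fell and 3 rose, where 11.5% of the 18103 genes tested fell and 11.7% rose, 23.3% in all (edgeR quasi-likelihood test over both viruses, adjusted p under 0.05). The median log2 change of the members was -0.14, against -0.00369 for all genes. With libraries scaled by their totals alone, 3 members rose and 22 fell. The split of all called genes was then 1527 rising and 3206 falling. It was 2127 and 2084 with the trimmed mean of M values (TMM) used in the reported fits. In the comparison of single libraries, 17 members had all 6 stimulated libraries below all 6 unstimulated ones and 3 had them above, where the shares of all genes were 8.94% and 5.72%. In such bulk samples fewer cells of a type and less RNA per cell cannot be told apart.

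Among the regulators, Srf fell to 71.6 to 82.3 CPM (median 77.9) in stimulated astrocytes, against 139.5 to 186 CPM (median 158) in unstimulated ones. The groups did not overlap, and the log2 change was -1.01 ± 0.046 (SE, edgeR adjusted p = 1.82e-18). Mrtfa and Mrtfb did not pass the test, with log2 changes of 0.050 ± 0.057 and 1.2e-05 ± 0.056. Among the actins, the cytoplasmic genes Actb and Actg1 fell. Actb stood at 1587 to 1768 CPM (median 1667) in stimulated and 2033 to 2461 CPM (median 2225) in unstimulated astrocytes, again without overlap, a log2 change of -0.36 ± 0.039 (edgeR adjusted p = 7.00e-09). Actg1 changed by -0.18 ± 0.045. The smooth muscle actin gene Acta2 had overlapping groups, at 1833 to 2086 CPM (median 1998) in stimulated and 2058 to 2339 CPM (median 2211) in unstimulated astrocytes, and did not pass (log2 change -0.087 ± 0.037, edgeR adjusted p = 0.0858). Acta2 passed by library totals (-0.14, edgeR adjusted p = 0.00339) and with a replicate block (-0.087, edgeR adjusted p = 0.0244). Actg2, the enteric smooth muscle actin gene, had a log2 change of 0.084 ± 0.12 and did not pass either.

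Cnn1, which encodes basic calponin, an actin and calmodulin binding protein of smooth muscle, rose against the trend of the module. It stood at 470.3 to 558 CPM (median 521) in stimulated astrocytes, against 274 to 282 CPM (median 278) in unstimulated ones. All stimulated libraries were far above all unstimulated ones, with a log2 change of 0.94 ± 0.041 (edgeR adjusted p = 2.72e-19). Its relative Cnn2 fell (-0.26 ± 0.039), whereas Cnn3 (0.0039 ± 0.032), Tagln (-0.13 ± 0.13) and Tagln2 (0.050 ± 0.035) did not pass. The tropomyosins, which coat actin filaments, split by gene. Tpm3 stood at 252 to 286 CPM (median 268) in stimulated and 165 to 188 CPM (median 180.4) in unstimulated astrocytes, without overlap, and rose by 0.64 ± 0.038 on the log2 scale. Tpm4 rose by 0.44 ± 0.035, while Tpm1 and Tpm2 changed by -0.13 ± 0.034 and -0.18 ± 0.041, both falling. Lmod1, the gene of leiomodin, an actin filament nucleator of smooth muscle, showed the largest decrease of the 34 members. It stood at 20.2 to 26.3 CPM (median 24.7) in stimulated and 49.8 to 74.6 CPM (median 64.5) in unstimulated astrocytes, a log2 change of -1.32 ± 0.11 (edgeR adjusted p = 2.00e-06). Cald1, the caldesmon gene, did not pass (-0.0046 ± 0.037).

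Of the 3 myosin genes 2 fell. Myh9, the heavy chain of nonmuscle myosin IIA, stood at 531 to 696 CPM (median 659) in stimulated and 907 to 1126 CPM (median 1021) in unstimulated astrocytes, without overlap, a log2 change of -0.60 ± 0.071. Mylk changed by -0.30 ± 0.10 at its low astrocyte level and lost its call in 6 of the 12 fits that left out 1 library, whereas Myl9, the regulatory light chain gene, missed the threshold (-0.10 ± 0.039, edgeR adjusted p = 0.0501). Myl9 passed by library totals, without the filter and with a replicate block (edgeR adjusted p = 0.00199, 0.0499 and 0.0186). Among 7 adhesion and crosslinking genes, 6 fell. Vcl, the gene of vinculin, which ties integrin adhesions to actin, stood at 255 to 270.2 CPM (median 259) in stimulated and 452 to 595 CPM (median 580.1) in unstimulated astrocytes, a log2 change of -1.01 ± 0.077. Tgfb1i1, which encodes the focal adhesion adaptor Hic-5, stood at 67.8 to 78.7 CPM (median 72.0) in stimulated and 92.0 to 116 CPM (median 108) in unstimulated astrocytes (-0.49 ± 0.056). The groups of Vcl and of Tgfb1i1 did not overlap. The zyxin gene Zyx changed by -0.78 ± 0.070, Filip1l by -0.45 ± 0.11, and the alpha-actinin genes Actn1 and Actn4 by -0.12 ± 0.034 and -0.13 ± 0.036. The filamin A gene Flna did not pass (0.10 ± 0.041), except without the filter (edgeR adjusted p = 0.0101). Of 6 LIM domain genes, whose products sit on actin filaments and adhesions, 5 fell. Lima1, which encodes the actin bundler EPLIN, stood at 119 to 137 CPM (median 131) in stimulated and 177 to 188 CPM (median 181) in unstimulated astrocytes, without overlap (-0.43 ± 0.038). Pdlim5, Pdlim7, Fhl2 and Csrp1 changed by -0.25 ± 0.034, -0.29 ± 0.051, -0.35 ± 0.066 and -0.15 ± 0.037, and Fhl1 did not pass (0.085 ± 0.036).

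**Figure D1:**
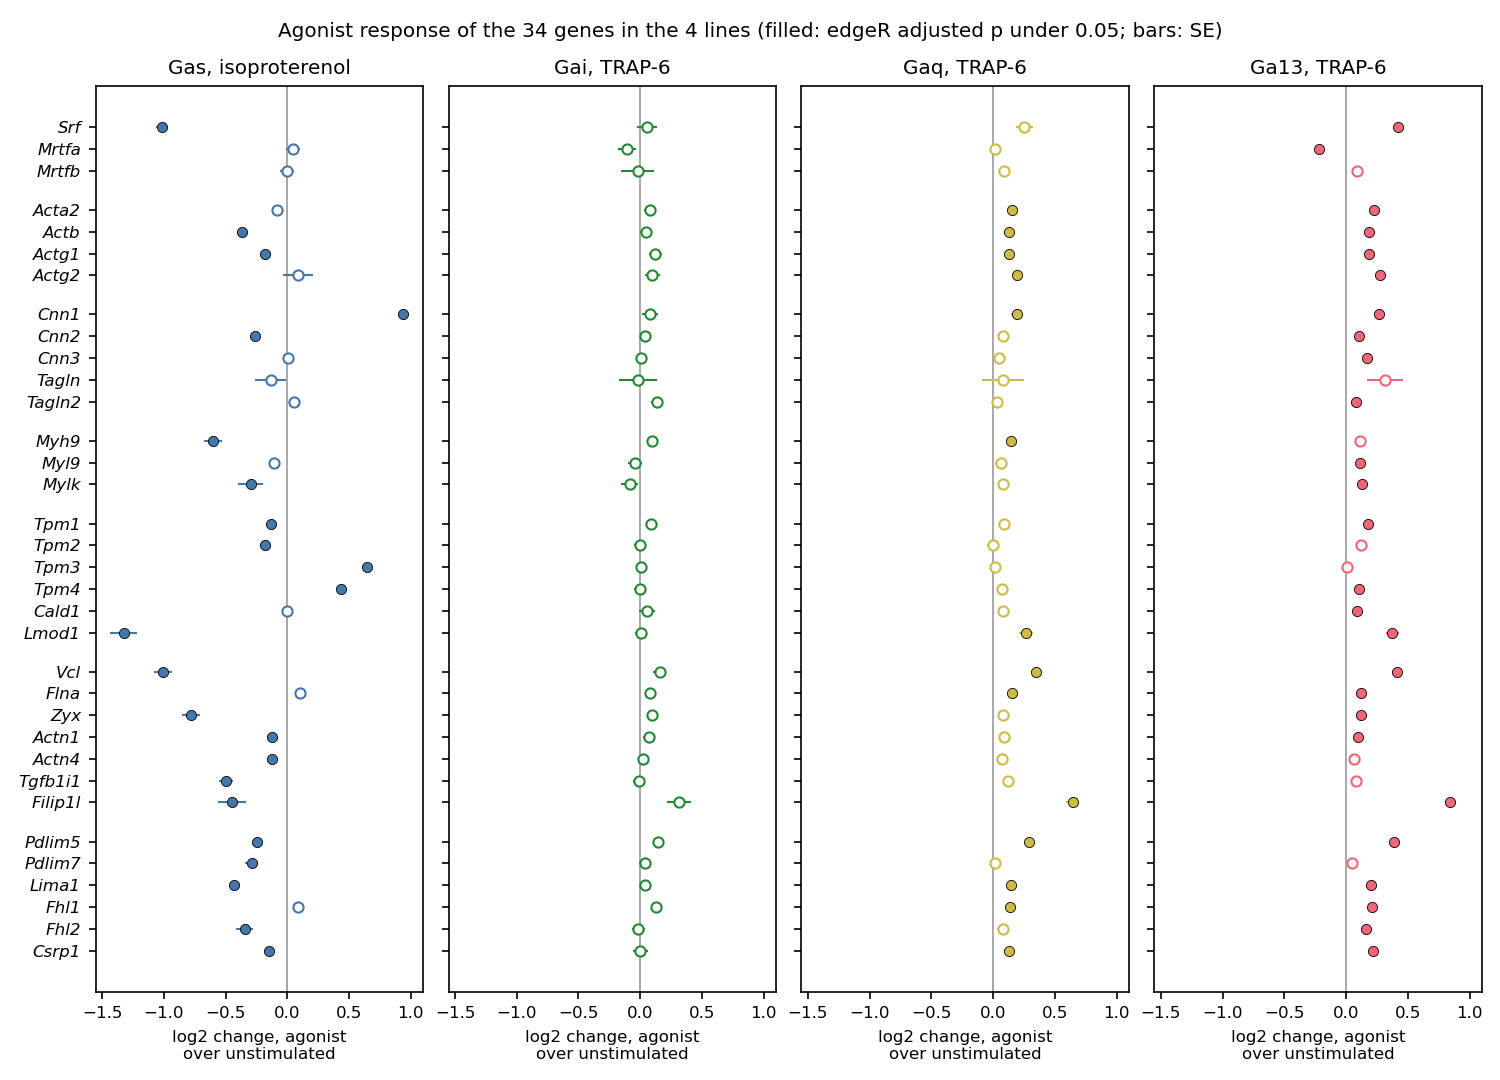
Log2 change (horizontal axis, agonist over unstimulated, both viruses) of each of the 34 genes (vertical axis, in blocks by role) in the 4 lines, with the SE as bars and filled points for edgeR adjusted p under 0.05. In Gas 20 members fell and 3 rose, in Gai none was called, in Gaq 14 rose, and in Ga13 25 rose and 1 fell.

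Genes around the module moved in both directions in the astrocytes. Of 23 measured genes among 24 other SRF and MRTF targets 13 fell and 4 rose. The immediate early genes Fos and Junb rose by 2.81 ± 0.045 and 1.73 ± 0.045, and Egr2 changed by -1.51 ± 0.074 (log2 changes with SE). Of 4 genes of other SRF cofactors, Elk3, a ternary complex factor, fell (-0.21 ± 0.043). Markers of smooth muscle and pericytes moved too: 3 of 7 tested fell (Pdgfrb, Cspg4 and Myh11), and their sum stood at 235.8 to 265.7 CPM in stimulated and 283.2 to 343.1 CPM in unstimulated astrocytes. None of the 9 markers was at 0 in the line, Myh11 and Des stand also among the other targets and Myocd among the cofactors, and their part in the fall of the module was not tested. Of the fibroblast markers 3 of 8 rose, and their sum was 1654 to 2055 CPM in stimulated and 1643 to 2058 CPM in unstimulated astrocytes.

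In Ga13 fibroblasts, TRAP-6 raised most of the module by small amounts. Of the 34 members 25 rose and 1 fell, where 4.69% of the 15835 genes tested rose and 3.69% fell (8.38% in all). The median log2 change was 0.15, against -0.00163 for all genes, and 33 members had a positive sign. With libraries scaled by their totals alone, 18 members rose and 1 fell, and the split of all called genes was 531 rising and 1124 falling, against 742 and 585 with TMM. In single libraries, 12 members had all stimulated libraries above all unstimulated ones and 1 had them below, where the shares of all genes were 2.01% and 3.57%.

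Srf stood at 139.8 to 157 CPM (median 151) in stimulated Ga13 fibroblasts, against 106 to 118 CPM (median 116) in unstimulated ones. The groups did not overlap, and the log2 change was 0.42 ± 0.034 (SE, edgeR adjusted p = 8.32e-12). Its coactivator gene Mrtfa was the member that fell, to 72.9 to 79.3 CPM (median 76.7) in stimulated fibroblasts against 88.6 to 92.7 CPM (median 91.1) in unstimulated ones (-0.22 ± 0.032). Mrtfb did not pass (0.092 ± 0.040). All 4 actins rose. Actb stood at 2395 to 2574 CPM (median 2442) in stimulated and 2157 to 2341 CPM (median 2210) in unstimulated fibroblasts, without overlap (0.18 ± 0.022), and Acta2 at 2447 to 2772 CPM (median 2558) and 2148 to 2464 CPM (median 2244) in the same groups, with overlap (0.23 ± 0.031). Actg1 and Actg2 rose by 0.18 ± 0.024 and 0.27 ± 0.039. Of the calponin and transgelin genes 4 of 5 rose. Cnn1 stood at 238 to 268 CPM (median 251) in stimulated and 197 to 242 CPM (median 213) in unstimulated fibroblasts, with overlap (0.27 ± 0.034). Cnn3, Cnn2 and Tagln2 rose by 0.17 ± 0.026, 0.10 ± 0.027 and 0.081 ± 0.025, while Tagln, with few counts, did not pass (0.32 ± 0.15). Tagln2 lost its call in 10 of the 12 fits that left out 1 library and Actn1 in 8.

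The largest change in Ga13 was that of Filip1l, whose product is named for its likeness to a filamin A interacting protein. It stood at 78.1 to 93.3 CPM (median 86.9) in stimulated fibroblasts, against 48.6 to 52.1 CPM (median 49.5) in unstimulated ones, a log2 change of 0.84 ± 0.041 (edgeR adjusted p = 2.23e-17). Vcl stood at 1248 to 1298 CPM (median 1273) in stimulated and 938 to 1012 CPM (median 989) in unstimulated fibroblasts (0.41 ± 0.023). Neither gene had overlapping groups. Flna, Zyx and Actn1 rose by 0.12 ± 0.022, 0.12 ± 0.027 and 0.093 ± 0.028, and Actn4 and Tgfb1i1 did not pass. Of the LIM domain genes 5 of 6 rose. Pdlim5, whose PDZ and LIM domain protein binds alpha-actinin, stood at 538 to 607 CPM (median 564) in stimulated and 435 to 457 CPM (median 443) in unstimulated fibroblasts, without overlap (0.39 ± 0.026). Csrp1, Fhl1, Lima1 and Fhl2 rose by 0.22 ± 0.025, 0.21 ± 0.030, 0.20 ± 0.025 and 0.16 ± 0.035, and Pdlim7 did not pass (0.051 ± 0.031).

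Among the filament side binders, 4 of 6 rose. Tpm1 stood at 1916 to 2093 CPM (median 2006) in stimulated and 1764 to 1919 CPM (median 1828) in unstimulated fibroblasts, with overlap (0.18 ± 0.025). Lmod1, Tpm4 and Cald1 rose by 0.37 ± 0.052, 0.11 ± 0.024 and 0.088 ± 0.022, and Tpm2 (0.12 ± 0.039) and Tpm3 (0.0098 ± 0.028) did not pass. Of the myosin genes Mylk, at 338 to 389 CPM (median 354) in stimulated and 318 to 348 CPM (median 342) in unstimulated fibroblasts, rose by 0.13 ± 0.030 with overlapping groups, and Myl9 rose by 0.12 ± 0.030. Myh9 did not pass (0.11 ± 0.036, edgeR adjusted p = 0.0678). DESeq2 called both Myh9 (adjusted p = 0.0187) and Tpm2 (adjusted p = 0.0382), as did edgeR without the filter and edgeR with a replicate block. Between the lines, 15 members fell in Gas and rose in Ga13, while Cnn1 and Tpm4 rose in both.

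**Figure D2:**
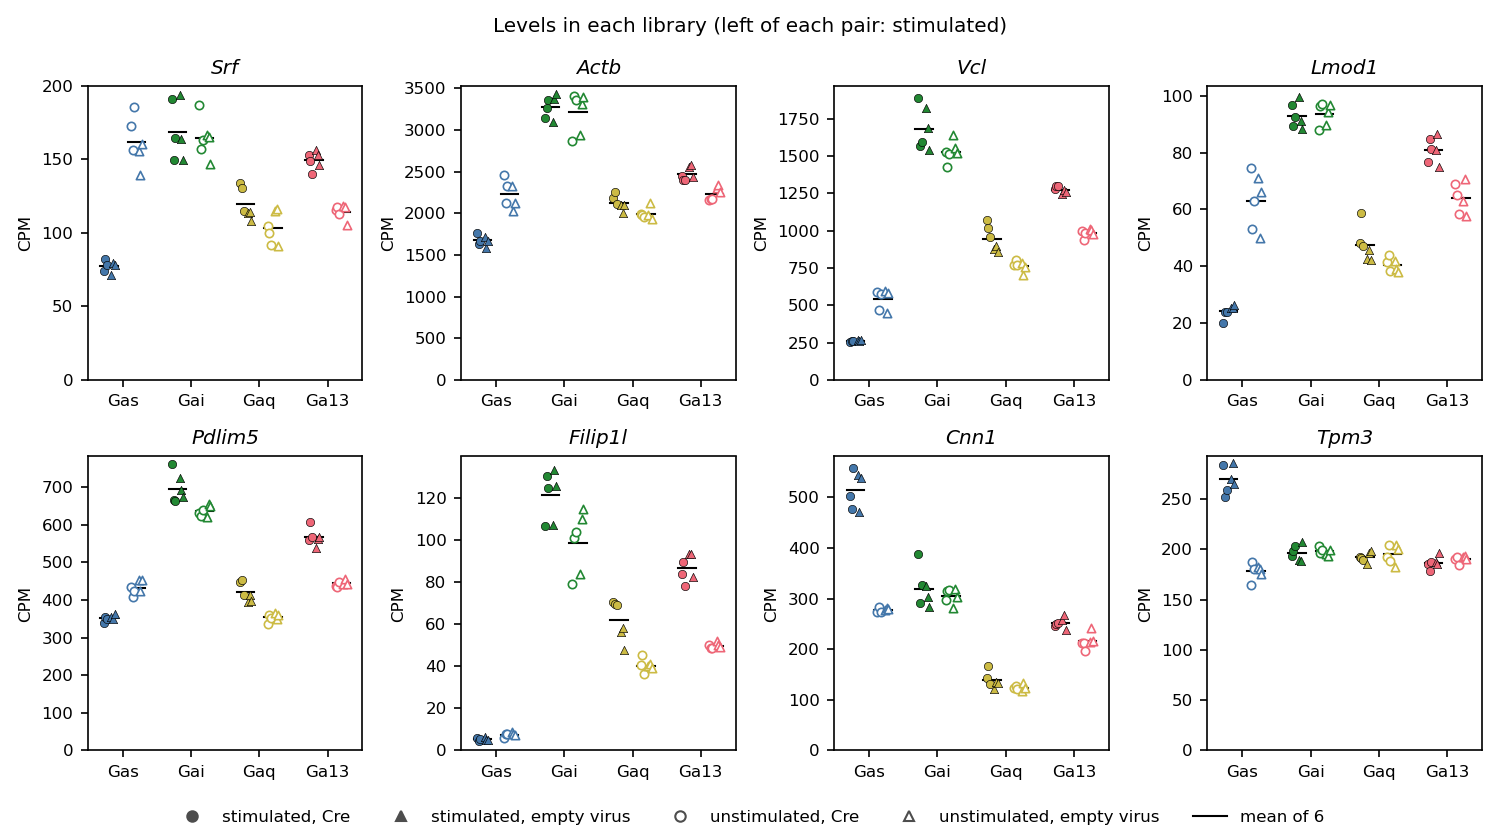
CPM (vertical axis, from 0) of 8 members in each library of the 4 lines, with stimulated libraries (filled) left of unstimulated ones (open), circles for Cre, triangles for empty virus and a bar at the mean of 6. Srf, Vcl and Lmod1 were lower in stimulated than in unstimulated Gas astrocytes without overlap, Cnn1 and Tpm3 were higher there, and Srf, Vcl, Pdlim5 and Filip1l were higher in stimulated than in unstimulated Ga13 fibroblasts.

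In Gaq fibroblasts, TRAP-6 raised 14 members and lowered none, where 3.78% of the 15528 genes tested rose and 1.83% fell (5.61% in all). The unadjusted p was under 0.05 with a falling sign for 0 members, where it was for 1078 of the genes. The median log2 change was 0.090, against -0.00624 for all genes, and 13 of the 14 rose in Ga13 as well. With libraries scaled by their totals alone 10 members rose, and the split of all called genes was 407 rising and 577 falling, against 587 and 284 with TMM. In single libraries, 4 members had all stimulated libraries above all unstimulated ones, where 1.38% of all genes did. Filip1l led, at 47.9 to 70.4 CPM (median 63.5) in stimulated and 36.2 to 45.4 CPM (median 40.3) in unstimulated fibroblasts (0.64 ± 0.053, edgeR adjusted p = 1.51e-10). Vcl stood at 854 to 1073 CPM (median 927) in stimulated and 702 to 803 CPM (median 769) in unstimulated fibroblasts (0.35 ± 0.032), and Pdlim5 at 395 to 453 CPM (median 414) and 337 to 365 CPM (median 356) (0.29 ± 0.032). None of these 3 genes had overlapping groups. All 4 actins rose, by log2 changes of 0.13 (Actb) to 0.19 (Actg2). Lmod1, Cnn1, Flna, Myh9, Fhl1, Lima1 and Csrp1 rose by 0.12 to 0.26, and over the 12 fits that left out 1 library Csrp1 lost its call in 9, Cnn1 in 6 and Actg1 and Lima1 in 1 each. By library totals Cnn1, Lima1, Actg1 and Csrp1 did not pass (edgeR adjusted p = 0.0554, 0.0602, 0.0938 and 0.179). Srf stood at 108 to 134 CPM (median 115) in stimulated and 91.3 to 117 CPM (median 102) in unstimulated fibroblasts, with overlap, and just missed the threshold (0.25 ± 0.067, edgeR adjusted p = 0.0506). It passed with DESeq2 (adjusted p = 0.000642), where its log2 change was 0.25. By edgeR it also passed with DESeq2 size factors (adjusted p = 0.0454), without the filter (adjusted p = 1.91e-08) and with the replicate block (adjusted p = 1.49e-07). By library totals it did not pass. Myh9 was called in Gaq and, in the reported edgeR fit, not in Ga13, and the difference between these lines did not pass.

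In Gai fibroblasts, no member passed the test without a replicate block, where 0.732% of 15980 genes rose and 0.388% fell (1.12% in all). The unadjusted p was under 0.05 for 8 members, all with a positive sign, where it was for 1543 of the genes, 804 of them rising. DESeq2 called 2 members, Fhl1 and Filip1l. With the block, 6 members rose and none fell, where 2.89% of genes rose and 2.1% fell. These were Filip1l (log2 change 0.32, edgeR adjusted p = 2.01e-07), Tagln2 (0.13), Fhl1 (0.13), Vcl (0.15), Pdlim5 (0.15) and Myh9 (0.094). Filip1l stood at 107 to 133 CPM (median 125) in stimulated and 79.2 to 115 CPM (median 102) in unstimulated fibroblasts, with overlap, and the libraries of replicate 1 were the lowest of their group in each of the 4 groups. Fhl1 and Pdlim5 were the members whose stimulated libraries all stood above all unstimulated ones, where 0.839% of all genes did. Srf stood at 149 to 194 CPM (median 164) in stimulated and 147 to 187 CPM (median 164) in unstimulated fibroblasts, with overlap, and its log2 change without the block was 0.056 ± 0.079. Over all members the log2 changes without the block ran from -0.11 (Mrtfa) to 0.31 (Filip1l), with a median of 0.044, against -0.00171 for all genes.

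Genes around the module were counted in the fibroblast lines as well. Of 23 measured other SRF and MRTF targets 13 rose and 1 fell in Ga13, 11 rose and 1 fell in Gaq, and 1 rose in Gai. Amotl2, the gene of an angiomotin family protein, rose by 0.54 ± 0.026 in Ga13, 0.54 ± 0.031 in Gaq and 0.26 ± 0.052 in Gai. Egr1, an immediate early gene, rose by 0.47 ± 0.031 in Ga13 and 0.35 ± 0.032 in Gaq, and Egr2 was the gene that fell in both. F2r, which encodes PAR1, stood at 438 to 469.5 CPM (median 458) in stimulated and 440.2 to 497 CPM (median 461) in unstimulated Ga13 fibroblasts. Markers of smooth muscle and pericytes summed to 1129 to 1250 CPM in stimulated and 1228 to 1345 CPM in unstimulated Ga13 fibroblasts, with 1 of 9 called (Cspg4, falling) and none at 0 in the line. Fibroblast markers summed to 45030 to 47230 CPM and 46210 to 48160 CPM in the same groups. The part of either list in the rise of the module was not tested.

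In the joint fit of the 3 fibroblast lines, the TRAP-6 response of 4 members was larger in Ga13 than in Gai, where 0.287% of 16749 genes had a larger response in Ga13 and 0.316% differed in either direction. The differences were 0.52 ± 0.11 for Filip1l (log2, SE, 95% interval 0.30 to 0.74, edgeR adjusted p = 0.0218), 0.36 ± 0.079 for Lmod1, 0.25 ± 0.058 for Vcl and 0.24 ± 0.049 for Pdlim5. The edgeR adjusted p-values of Lmod1, Vcl and Pdlim5 were 0.0218, 0.0419 and 0.00914. The count was 1 without Ga13 stimulated Cre replicate 2, Gai unstimulated Cre replicate 3 or Gai unstimulated empty virus replicate 2. It was 2 without Ga13 stimulated empty virus replicate 2, Ga13 unstimulated Cre replicate 3, Gai stimulated Cre replicate 2 or Gai stimulated empty virus replicate 3, and 7 without Gai stimulated Cre replicate 1. With the replicate block it was 9. Srf had a difference of 0.36 ± 0.10 that did not pass without the block (95% interval 0.15 to 0.57, edgeR adjusted p = 0.196). It passed at 0.37 with the block (edgeR adjusted p = 1.66e-06) and with DESeq2 (adjusted p = 0.0143). Between Gaq and Gai, 0.131% of genes had a larger and 0.00597% a smaller response in Gaq (0.137% in all). No member passed by DESeq2 or by edgeR with the filter and without the block. The unadjusted p was under 0.05 for 7 members, where it was for 923 of the 16749 genes. Of the members the largest difference was that of Filip1l, at 0.33 ± 0.11 (95% interval 0.10 to 0.55). With the block 4 members passed, Filip1l, Lmod1, Srf and Vcl, and without the filter Vcl passed. Between Ga13 and Gaq, 0% of genes passed by either tool with the filter and without the block, and 851 had an unadjusted p under 0.05. No member passed there, and 3 had an unadjusted p under 0.05. The smallest p was that of Mrtfa, with a difference of -0.24 ± 0.068 (95% interval -0.37 to -0.10). Mrtfa passed with the block (-0.24, edgeR adjusted p = 0.0128). The interval of the Ga13 minus Gaq difference was -0.034 to 0.42 for Filip1l, -0.041 to 0.38 for Srf and -0.13 to 0.067 for Myh9. Differences within these ranges were not resolved. These 3 comparisons share libraries of each line, and the biosensor allele and the source mice of a line cannot be told apart.

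The TRAP-6 response was then set against the isoproterenol response in a joint fit of all 48 libraries. Agonist, receptor, cell type, mouse line, virus dilution and cells per well change together there and cannot be told apart. Members stood higher under TRAP-6 for 23 genes in Ga13, 20 in Gaq and 17 in Gai, where 5.54%, 5.51% and 5.16% of 19316 genes did. They stood lower for 4 in Ga13, 3 in Gaq and 3 in Gai, where 6.03%, 6.01% and 5.72% of genes did. The 3 comparisons share the Gas libraries. With libraries scaled by their totals alone the split of all called genes in the Gai comparison was 1241 higher and 961 lower, against 997 and 1105 with TMM. The widest gap was that of Lmod1, at 1.70 ± 0.11 in Ga13, 1.58 ± 0.11 in Gaq and 1.33 ± 0.11 in Gai (log2 difference of responses, SE). Srf had differences of 1.44 ± 0.098 in Ga13, 1.26 ± 0.098 in Gaq and 1.07 ± 0.097 in Gai, and Vcl had differences of 1.42 ± 0.077, 1.35 ± 0.077 and 1.16 ± 0.077 in the same lines, so the values of Srf and Vcl differed by less than the SE of Srf in each line. All of these passed at edgeR adjusted p-values of 1.38e-12 or lower except that of Srf in Gai (4.35e-11). Filip1l, Zyx, Myh9, Tgfb1i1, Lima1, Pdlim5 and Actb were also higher in all 3 comparisons, by 0.39 to 1.31. The genes on the other side were Cnn1 (-0.67 ± 0.082 in Ga13, -0.75 ± 0.083 in Gaq, -0.86 ± 0.082 in Gai), Tpm3 (-0.63 ± 0.048, -0.63 ± 0.048, -0.63 ± 0.048) and Tpm4 (-0.33 ± 0.049, -0.37 ± 0.049, -0.44 ± 0.049), joined in Ga13 by Mrtfa (-0.27 ± 0.071). Cnn1 and Tpm4 were lower in these differences although they had risen with TRAP-6 in Ga13, having risen more with isoproterenol. Acta2 was higher under TRAP-6 in Ga13 (0.32 ± 0.063) and Gaq (0.23 ± 0.063) and did not pass in Gai without the block (0.17 ± 0.063). With the block Acta2 passed in Gai at 0.17 (edgeR adjusted p = 0.0183), as did Tpm2 at 0.18 (adjusted p = 0.0197) and, lower under TRAP-6, Mrtfa at -0.15 (adjusted p = 0.043). Acta2 also passed there by library totals (adjusted p = 0.0137) and without the filter (adjusted p = 0.00785). Flna, Fhl1, Cald1, Tagln2, Mrtfb, Actg2 and Tagln passed in none of the 3.

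**Figure D3:**
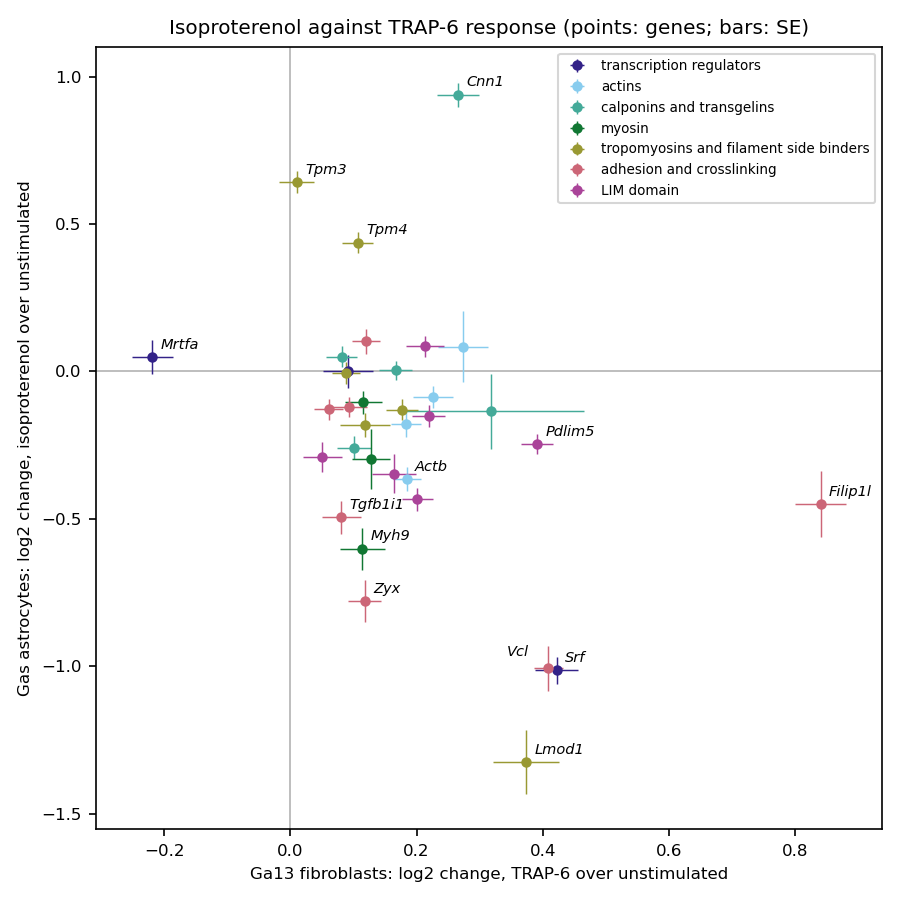
Log2 change with isoproterenol in Gas astrocytes (vertical axis) against log2 change with TRAP-6 in Ga13 fibroblasts (horizontal axis) for the 34 genes, coloured by role, with SE bars. Of the members, 15 fell in Gas and rose in Ga13, Cnn1 and Tpm4 rose in both, and Tpm3 rose in Gas and did not pass in Ga13.

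Between Cre and empty virus, without the replicate block, members passed the test in the Gaq line and in no other. In stimulated Gaq fibroblasts 8 members were higher with Cre and none was lower, where 1.99% of genes were higher and 1.42% lower (3.41% in all). The median log2 difference of the members was 0.12, against -0.00134 for all genes. Of the 34 members, 19 had all 3 Cre libraries above all 3 empty virus libraries and 4 had them below, where the shares of all genes were 9.29% and 10.2%. Lima1 had 423, 419 and 365 CPM in the 3 stimulated Cre libraries, against 341, 334 and 319.6 CPM in the 3 stimulated empty virus libraries (0.29 ± 0.051, edgeR adjusted p = 0.000465). Filip1l had 70.4, 69.5 and 69.0 CPM with Cre and 56.1, 58.0 and 47.9 CPM with empty virus (0.37 ± 0.073), and Mylk 242, 269 and 225 CPM and 199, 208 and 197 CPM (0.29 ± 0.056). In these 3 genes each Cre library was above each empty virus library. Csrp1 had 376, 416 and 343 CPM with Cre and 316, 312 and 317 CPM with empty virus (0.27 ± 0.053). Vcl had 1073, 1020 and 959.9 CPM with Cre and 877, 894 and 854 CPM with empty virus (0.23 ± 0.046). Fhl1, whose product is a LIM-only protein of muscle, had 309, 316 and 323 CPM with Cre and 274, 265 and 285 CPM with empty virus (0.21 ± 0.041). The groups of Csrp1, Vcl and Fhl1 did not overlap either.

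The smooth muscle actins completed the list. Acta2 had 1678, 1871 and 1571 CPM with Cre and 1511, 1502 and 1480 CPM with empty virus (0.20 ± 0.049, edgeR adjusted p = 0.0223). Actg2 had 108, 116 and 103 CPM with Cre and 94.7, 98.7 and 90.3 CPM with empty virus (0.22 ± 0.056). Both sets of libraries were apart, but Cre replicate 2 was the highest of its group for both genes, and without it the log2 difference was 0.12 for Acta2 (adjusted p = 0.248) and 0.17 for Actg2 (adjusted p = 0.219). Over the 12 fits that left out 1 library Acta2 lost its call in 5, Actg2 in 4 and Vcl in 1. The count of members was 5 without stimulated Cre replicate 1 and 13 without stimulated Cre replicate 3. Other values moved with the virus in these libraries. Summed fibroblast markers stood at 41120 to 46070 CPM with Cre and 35760 to 36200 CPM with empty virus in stimulated cells, with 6 of 8 called higher, and at 41530 to 44380 CPM and 36080 to 38640 CPM in unstimulated cells. Smooth muscle and pericyte markers stood at 1056 to 1110 CPM with Cre and 1029 to 1047 CPM with empty virus in stimulated cells, with 2 of 9 higher and 1 lower, and mesothelial markers at 507.7 to 555.5 CPM and 376.6 to 464.3 CPM. Depth was 18.2 to 25.7 M counts with Cre and 16.3 to 18.3 M counts with empty virus. None of the fibroblast, smooth muscle or mesothelial markers was at 0 in the line, and the part of these values in the difference was not tested.

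In unstimulated Gaq fibroblasts 1 member passed, Tagln2, which was lower with Cre, where 1.37% of genes were lower and 1.28% higher (2.65% in all). It had 344, 327 and 336 CPM with Cre and 372, 399.6 and 358 CPM with empty virus (-0.16 ± 0.043, edgeR adjusted p = 0.0362). The call was lost in 8 of 12 fits that left out 1 library. Lima1 differed by 0.16 ± 0.051 and Mylk by 0.15 ± 0.056 in the same direction as in stimulated cells, without passing. The difference between the virus effects with and without TRAP-6 passed for no member by DESeq2 or by edgeR with the filter and without the replicate block. In that edgeR fit 0.155% of genes had a larger and 0.00644% a smaller response with Cre (0.161% in all). The unadjusted p was under 0.05 for 1062 of 15528 genes. Of the members 8 had an unadjusted p under 0.05, all with a larger response with Cre, led by Filip1l (0.35 ± 0.11, 95% interval 0.13 to 0.56, edgeR adjusted p = 0.337). With the replicate block Srf (0.29, edgeR adjusted p = 0.0219) and Filip1l (0.36, edgeR adjusted p = 0.0401) passed. Without the filter Srf passed (0.31, edgeR adjusted p = 0.0345). In this line pairing by replicate number was not settled. Same-number correlations were 0.015 to 0.26, so not all passed 0.1, while 10 of 12 libraries correlated best with their own number. Whether the virus effect differs between stimulated and unstimulated cells thus depended on the setting for Srf and Filip1l. It was not shown for other members in these fits.

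**Figure D4:**
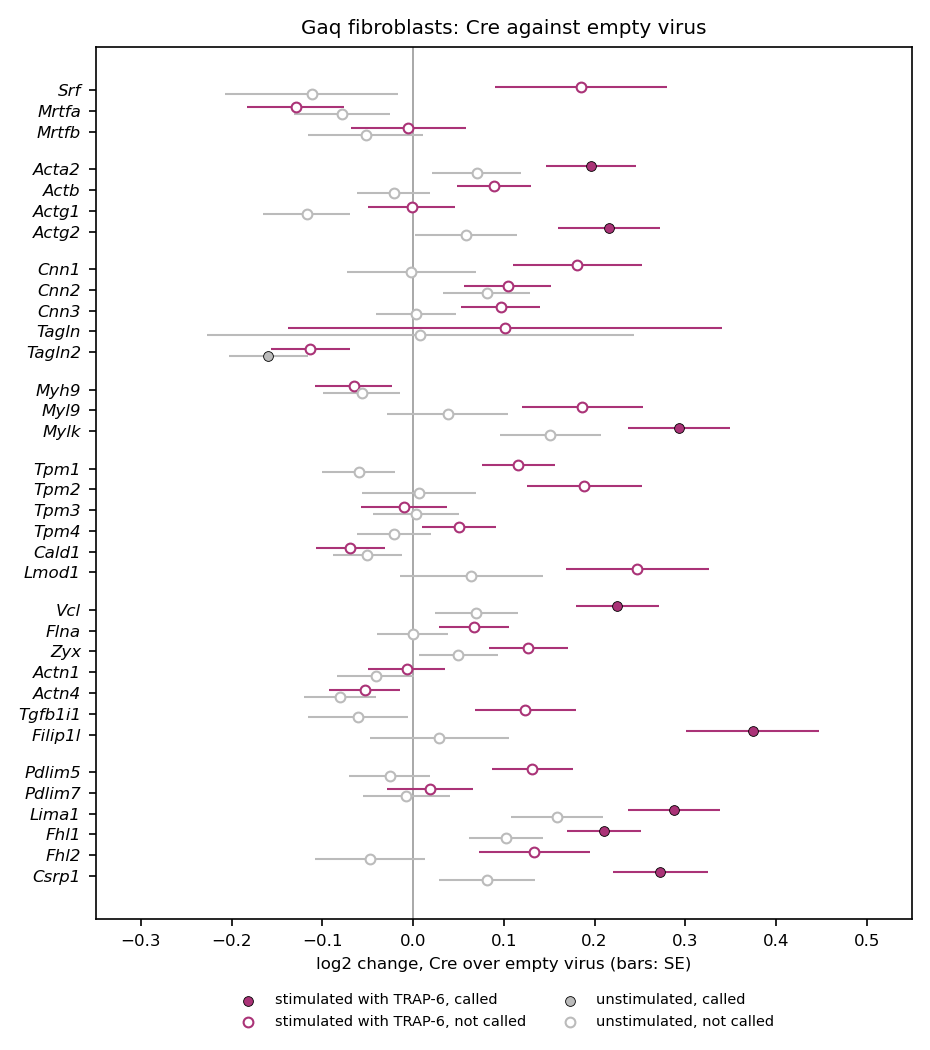
Log2 change of Cre over empty virus (horizontal axis, SE bars) for the 34 genes (vertical axis) in Gaq fibroblasts, with TRAP-6 in purple above and without it in grey below in each pair, and filled points for edgeR adjusted p under 0.05. With TRAP-6, 8 members were called higher, from Acta2 at 0.20 to Filip1l at 0.37; without it Tagln2 was called lower at -0.16.

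Without the replicate block, no member passed for Cre against empty virus in the Gas, Gai or Ga13 lines in either state, by edgeR or DESeq2. None passed for the interaction in these lines. In Gas 0.0166% of genes were higher with Cre in stimulated and 0.00552% in unstimulated astrocytes. In Ga13 0.0568% were higher in stimulated fibroblasts, and 0.00632% were higher and 0.00632% lower in unstimulated ones (0.0126% in all), and in Gai 0% passed. Interactions passed for 0% of genes in Gas and Gai and, in Ga13, for 0.0758% rising and 0.00632% falling (0.0821% in all). The unadjusted p was under 0.05 for 1 member in stimulated and 3 in unstimulated Gas astrocytes, where it was for 671 and 1168 of 18103 genes. In Gai it was for no member in either state, where it was for 348 (stimulated) and 407 (unstimulated) of 15980 genes. In stimulated Ga13 fibroblasts it was for 4 members, all lower with Cre, where it was for 1257 of 15835 genes. In unstimulated ones it was for 6 members, 5 lower and 1 higher, where it was for 783 genes. For the interaction it was under 0.05 for 1 member in Gas and 0 in Gai and Ga13, where it was for 631, 345 and 1214 genes. Acta2 had 2447, 2589 and 2455 CPM with Cre and 2753, 2772 and 2526 CPM with empty virus in stimulated Ga13 fibroblasts, a log2 difference of -0.11 ± 0.044 (95% interval -0.20 to -0.014), with overlapping groups. With the replicate block Acta2 passed there (-0.10, edgeR adjusted p = 0.037). In stimulated Gas astrocytes it had 2086, 1833 and 1965 CPM with Cre and 2031, 1955 and 2066 CPM with empty virus (-0.050 ± 0.052), and in stimulated Gai fibroblasts 3288, 2970 and 3085 CPM and 2962, 3032 and 2886 CPM (0.064 ± 0.072). The intervals of Srf for Cre against empty virus in stimulated cells were -0.11 to 0.16 in Gas, -0.26 to 0.22 in Gai and -0.14 to 0.047 in Ga13, and changes within these ranges were not resolved. In Gaq the Srf difference was 0.18 ± 0.095 in stimulated cells and did not pass (edgeR adjusted p = 0.437). It passed at 0.19 without the filter (edgeR adjusted p = 0.0209) and at 0.18 with the replicate block (edgeR adjusted p = 0.0117).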

How the data were processed

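Poly-A selected RNA of 48 libraries was sequenced, and the deposited files hold raw read counts per gene made by the authors, in 1 table for each line. Per the submitters' processing notes, fastp, Subread and featureCounts were used with GRCm39. Their versions, the annotation and the strand setting are not given in the sources used here.

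From the counts, edgeR 4.0.16 (limma 3.58.1, R 4.3.3) was fitted to each line with 1 coefficient per group, TMM scaling, the filterByExpr filter and quasi-likelihood F-tests. The response is the mean over both viruses. The fibroblast lines, and all 48 libraries, were also fitted jointly. P-values were adjusted over all genes tested by the Benjamini-Hochberg method. CPM values, and the comparisons of single libraries made on them, use library totals without TMM scaling. The fits were tested on simulated data. The 34 members and the gene lists were chosen with earlier results of these data known. The text gives library values for Srf and Acta2, for the member of smallest p in each role group in Gas and in Ga13, and for members called between viruses, and others that the results turn on were chosen after their values were seen. Lists name at most 3 genes a line, by smallest p, and 1 list is not reported here.

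Same-numbered libraries of different groups were checked for correlated deviations from their group means. The 18 correlations ran from 0.17 to 0.68 in Gai, which was taken as paired, and not all passed 0.1 in the other lines. The pairing comes from the data, since labels give numbers only. Alternatives were DESeq2 1.42.0, its size factors, scaling by library totals, no filter, a replicate block and leaving out each library. Promoters come from RefSeq (GRCm38.p6) and exon overlaps from GENCODE M21.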

Additional observations from a re-analysis of the deposited data

Results flagged for a closer look

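The TRAP-6 response of 4 members differed between 2 fibroblast lines by a test of the difference itself. The log2 response in Ga13 minus that in Gai was 0.5232 for Filip1l, 0.3629 for Lmod1, 0.2478 for Vcl and 0.2395 for Pdlim5. Over the 24 fits that left out 1 library of these 2 lines, Vcl lost its call in 19, Lmod1 in 7 and Filip1l in 3. The lines differ in the biosensor allele and in the mice they came from, and these cannot be told apart.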

How the results depend on the processing

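No called member changed sign under any alternative tried. Counts of called members that moved are given here, beside the value reported. With the replicate block, members called were 6 for the Gai response (0 without), 22 for the Gaq response (14), 16 for Cre in stimulated Gaq cells (8), 2 in unstimulated ones (1), 1 in stimulated Ga13 cells (0), 2 for the Gaq interaction (0), 9 for Ga13 minus Gai (4), 4 for Gaq minus Gai (0) and 1 for Ga13 minus Gaq (0). In Gas, Gaq and Ga13 the numbers were not shown to pair samples, with correlations of -0.083 to 0.32, 0.015 to 0.26 and -0.0023 to 0.30, and 8, 10 and 10 of 12 libraries correlating best with their own number. In Gai, where all same-number correlations passed 0.1, 5 of 12 libraries did so, and correlations between different numbers reached 0.59. Without the filter the counts were 3 for the Gai response, 13 and 2 for Cre in stimulated and unstimulated Gaq cells, 1 for the Gaq interaction and 1 for Gaq minus Gai. DESeq2 called 2 in the Gai response. The cause was not tested.

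Leaving out 1 library gave 22 to 28 members for the Ga13 response, 22 to 26 for Gas, 11 to 18 for Gaq and 0 for Gai. It gave 5 to 13 for Cre in stimulated and 0 to 2 in unstimulated Gaq cells, 0 to 1 for the Gaq interaction, 1 to 7 for Ga13 minus Gai, 0 to 1 for Gaq minus Gai and 0 for Ga13 minus Gaq. For TRAP-6 minus isoproterenol it gave 26 to 28 in Ga13, 22 to 24 in Gaq and 19 to 22 in Gai, and 0 elsewhere.

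Counts over all genes moved as well. The Gai response had 179 genes, against 293 with DESeq2, 445 without the filter and 797 with the block. Ga13 minus Gai had 53 (96, 121 and 288 in that order) and Gaq minus Gai 23 (47, 57 and 161). The Gaq interaction had 25 (41, 67 and 91) and the Ga13 interaction 13 (57, 86 and 138, and 3 by library totals). With the block, Cre called 944 genes in stimulated Gaq cells (529 without) and 752 in unstimulated ones (411). Cre in Ga13 called 9 in stimulated cells (29, 63 and 112) and 2 in unstimulated ones (6, 33 and 33). Cre in Gai called 0 in stimulated (2, 9 and 9) and 0 in unstimulated cells (1, 6 and 11), its interaction 0 (2 without the filter), Cre in unstimulated Gas cells 1 (3 with DESeq2, 13 without the filter) and Ga13 minus Gaq 0 (2 without the filter, 7 with the block). Tagln had the lowest CPM of the members in the fibroblast lines, and how depth bears on its calls was not tested.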
